A study of Mus musculus with 35 samples.

Results

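The lungs of 10 mice ventilated with a high stretch under hypercapnia were compared with the lungs of 5 non-ventilated mice, 15 of the 35 arrays of the series. The arrays were chosen by their labels. All mice were adult male C57BL/6J animals of 20 to 25 g. The 10 mice of the high stretch hypercapnia group were anesthetized and tracheostomized. They were then ventilated for 3 h at a tidal volume of 35 to 40 mL/kg, a peak pressure of 27 cmH2O, no end-expiratory pressure and 30 to 35 breaths/min. Their inspired gas held 75% O2 and 12% CO2 in nitrogen. The 5 control mice breathed room air spontaneously. Whether they were anesthetized for as long is not given in the sources used here. Ventilation, its tidal volume, the procedure, the added oxygen and the added CO2 therefore all differ between the groups and cannot be told apart in this comparison. Another 10 arrays came from high stretch normocapnia, with the same ventilator settings and oxygen but no CO2. Low stretch hypercapnia and low stretch normocapnia had 5 arrays each, at 10 mL/kg, an end-expiratory pressure of 2 cmH2O and 135 breaths/min, with 12% CO2 in room air or room air alone. RNA of each lung was hybridised to its own array after the lung had been lavaged, so cells washed out of the airspaces were not measured.

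Ventilation with large tidal volumes strains the alveolar wall and injures it, and neutrophils, cytokines, epithelial cells and the pulmonary endothelium all take part in that response. Stretched cells switch on immediate-early genes, many of which encode transcription factors. The transcription of these genes starts within minutes and needs no new protein synthesis. Cytokine, matrix and stress genes follow. Carbon dioxide forms carbonic acid in the tissue, and hypercapnia is known to alter both inflammatory signalling and the repair of injured epithelium.

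Levels are log2 hybridisation signals, so 1 unit is a doubling of signal, and a level is compared only within a gene. A level with ± is a group mean with its SD between arrays. A change or difference with ± is given with its SE. The array medians lay between 6.99 and 7.04 in the non-ventilated group and between 6.99 and 7.05 in the high stretch hypercapnia group, and no 2 arrays held identical values. All 9 defining markers of lung cells that were looked for were measured, with means in the ventilated lungs from 7.64 for Foxj1, the master regulator of motile cilia, to 14.01 for Sftpc, which encodes surfactant protein C. Sftpc was at 14.04 in the non-ventilated lungs and did not pass. In whole tissue, fewer cells of a type and less RNA per cell cannot be told apart. A few arrays stood apart. Non-ventilated replicate 5 had a mean level of neutrophil genes of 8.17, where the other 4 controls had 6.83 to 7.32, and its adipose, skeletal muscle and mesothelial genes were at 7.97 against 7.12 to 7.27. High stretch hypercapnia replicate 10 had interferon-stimulated genes at 9.83, against 7.67 to 8.24 in the other 9 arrays of its group. High stretch hypercapnia replicates 1 and 2 had adipose, skeletal muscle and mesothelial genes at 7.88 and 7.97. Where leaving out 1 array, or these arrays together, moves a printed count of 3 or more genes by over 1.5 times, the count without them is given beside it.

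Of 19938 genes, 6748 passed (33.8%), with 3240 higher (16.3%) and 3508 lower (17.6%), in limma with Benjamini-Hochberg adjusted p under 0.05. The rises were the larger changes. A rise of at least 1 log2 unit was seen in 239 genes (1.20%) and a fall of that size in 65 genes (0.326%). In 2639 genes (13.2%) the 10 ventilated arrays and the 5 controls did not overlap. In 1447 of these genes (7.26%) every ventilated array lay above every control, and in 1192 (5.98%) below. The median change over all genes was -0.04. The 53 lists of genes described next are read against these shares, and all were chosen with earlier results of these data known. All changes against the non-ventilated mice, in any ventilated group, share the same 5 control arrays, so the groups' changes are set side by side without a test of their likeness.

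**Figure D1:**
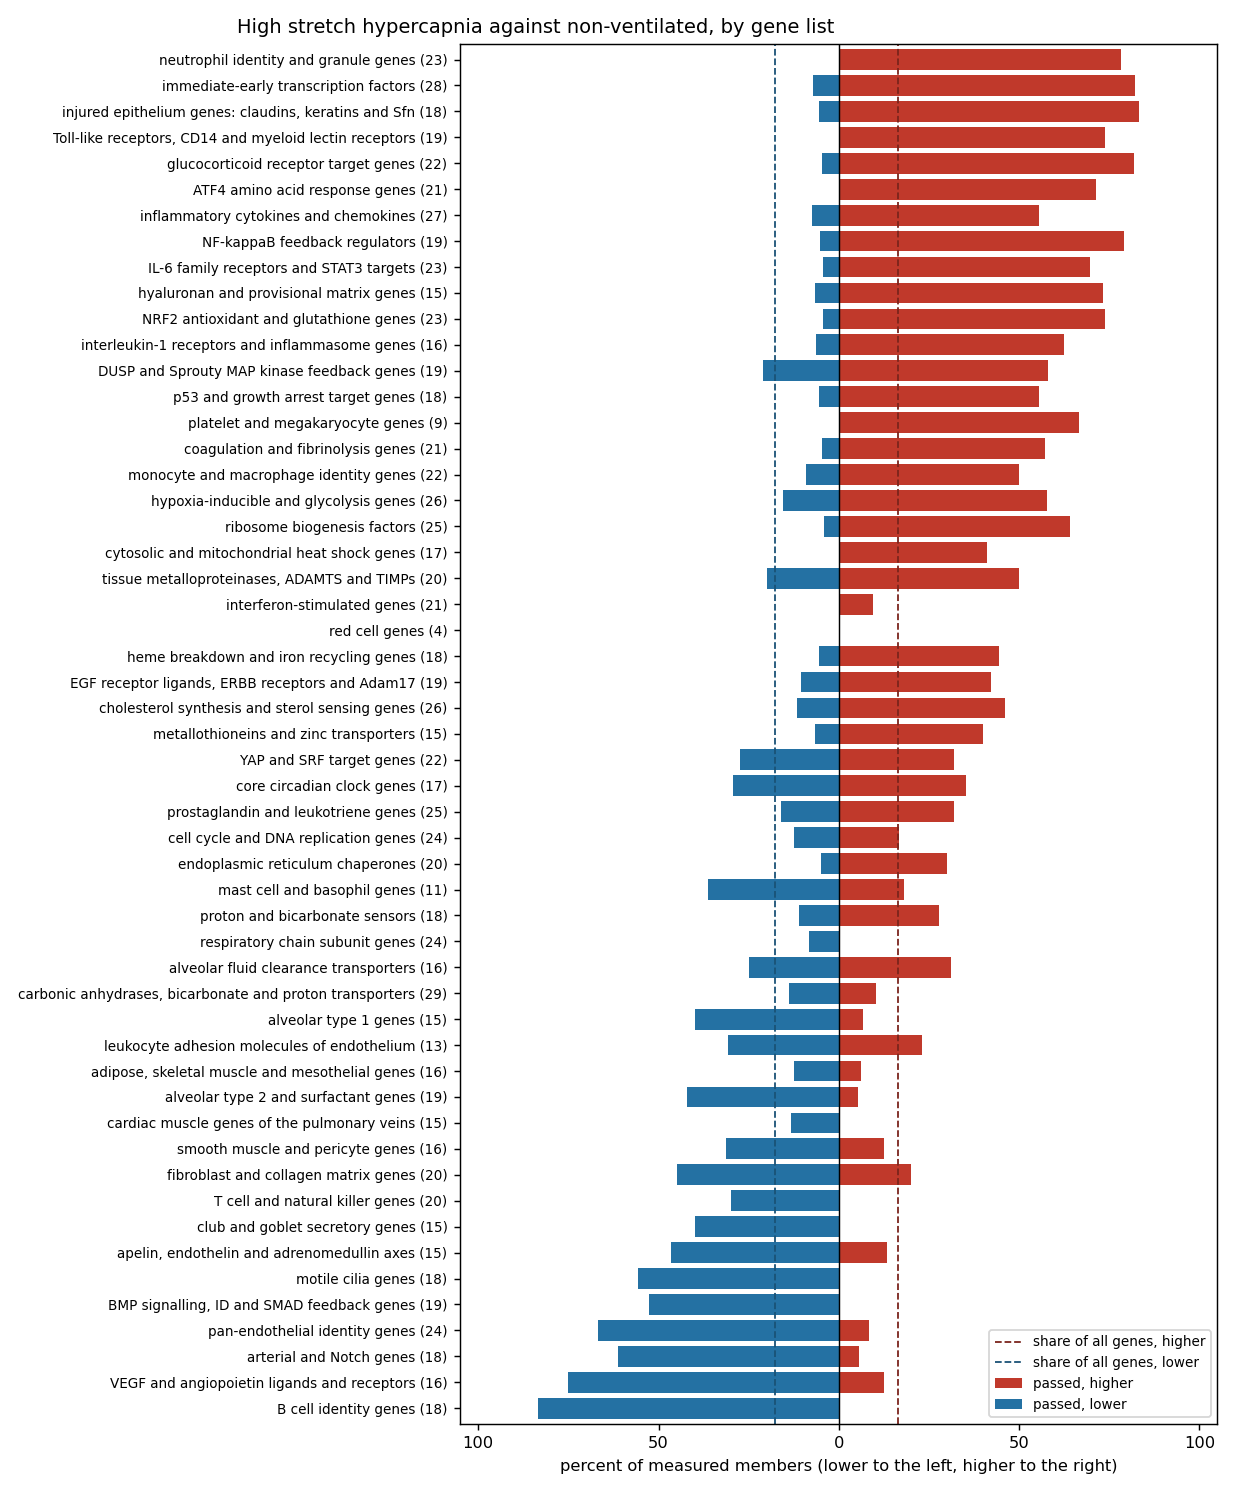
Share of the measured members of each of the 53 gene lists that passed the limma test as higher (right) or lower (left) in high stretch hypercapnia than in the non-ventilated lungs, in percent. The dashed lines mark the shares over all genes, 16.3% higher and 17.6% lower; the lists are ordered by their median change, from neutrophil genes at 1.67 to B cell genes at -0.65.

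Neutrophil genes were among the largest rises. Of 23 genes of neutrophil identity and granules 18 rose, none fell and 5 did not pass, with a median change of 1.67. Mmp8, the neutrophil collagenase, read 6.87, 6.31, 6.09, 6.36 and 8.65 on the control arrays and 10.30 to 11.69 (median 11.04) on the ventilated arrays. The control at 8.65 is replicate 5, yet all 10 ventilated arrays lay above it. The rise of Mmp8 was 4.10 ± 0.29 (SE), or 17.2-fold, with a limma adjusted p of 3.72e-13. Il1r2, a decoy receptor that captures interleukin-1, read 6.67, 6.49, 5.92, 6.56 and 7.73 in the controls and 9.83 to 11.48 (median 10.72) after ventilation. It rose 15.7-fold without overlap (adjusted p 2.39e-13). S100a8 and S100a9 encode the subunits of calprotectin, the main cytosolic protein of neutrophils. S100a8 read 8.36, 7.17, 6.71, 6.93 and 10.41 in the controls and 10.47 to 12.11 (median 11.27) in the ventilated lungs, a rise of 3.28 ± 0.36. S100a9 rose by 2.99 ± 0.33, and its lowest ventilated array was level with control replicate 5 at 10.11, so its groups overlapped. Retnlg, a resistin-like protein of neutrophils, rose 10.2-fold, and Cxcr2, the receptor through which neutrophils follow CXC chemokines, 7.77-fold. Clec4e and Clec4d, lectin receptors that sense microbial glycolipids, rose 10.1-fold and 9.01-fold. The chemokine receptor gene Ccr1 rose 6.77-fold, Il1f9, which encodes interleukin-36 gamma, 7.48-fold, and Ifitm6 6.64-fold. In each of these 7 genes control replicate 5 was the highest control and the ventilated arrays still lay above it.

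Without control replicate 5 and ventilated replicate 10, or without control replicate 5 and ventilated replicates 1 and 2, the neutrophil count stayed at 18 of 23. The median of the neutrophil list was above that of all genes in the other ventilated groups too. The median change of the list was 1.84 in high stretch normocapnia, 1.55 in low stretch hypercapnia and 1.65 in low stretch normocapnia. None of its 23 genes passed against high stretch normocapnia, nor against low stretch hypercapnia. At unadjusted p under 0.05 the numbers were 4 and 0. With array weights 3 of its genes passed as lower than in high stretch normocapnia. Mmp8 changed by 4.15, 4.05 and 4.21 in those 3 groups, beside 4.10 here.

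**Figure D2:**
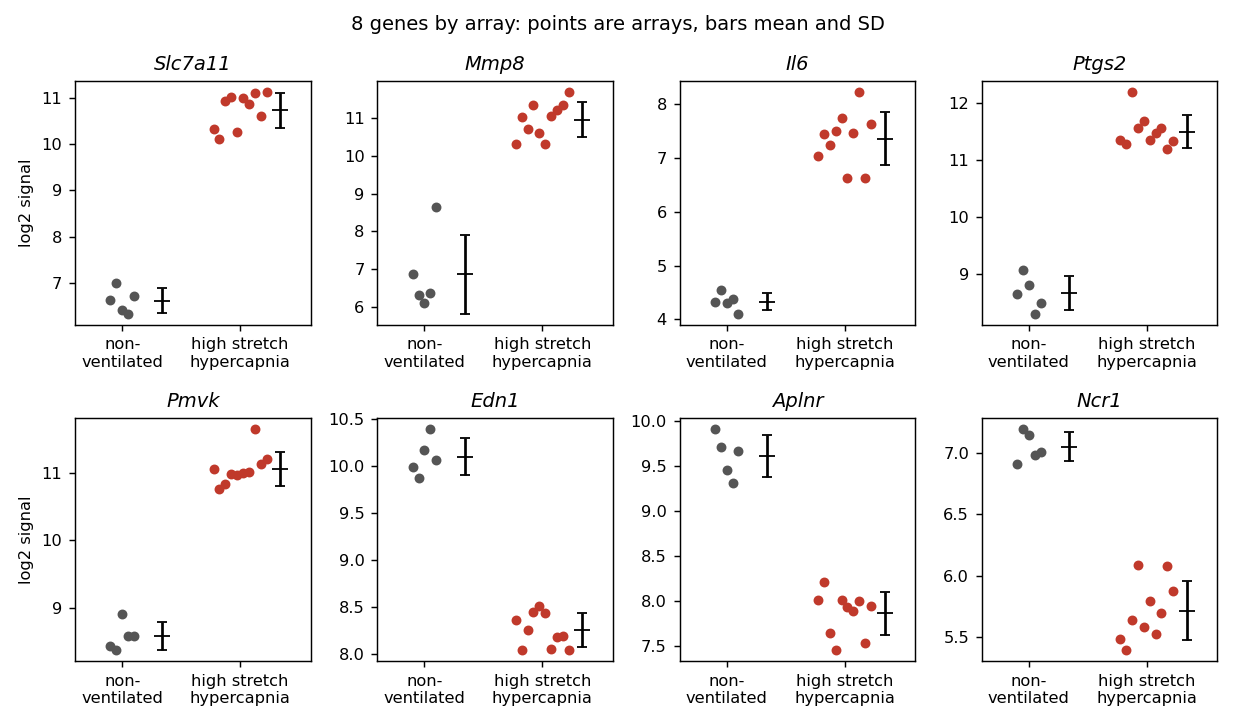
Log2 signal of 8 genes on each of the 5 non-ventilated and 10 high stretch hypercapnia arrays, with the group mean and SD as bars. Mmp8 is high on 1 control array (8.65), and in the genes shown the ventilated arrays all lie on one side of the controls.

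Slc7a11, which encodes the cystine importer that feeds glutathione synthesis, stood level with Mmp8 as the largest rise, at 4.11 ± 0.27 and 4.10 ± 0.29. Slc7a11 read 6.63, 7.01, 6.41, 6.34 and 6.72 in the controls and 10.11 to 11.12 (median 10.89) in the ventilated lungs. The lowest ventilated array lay 3.10 units above the highest control, and Slc7a11 rose 17.3-fold (adjusted p 5.97e-14). Its change was 4.58 in high stretch normocapnia and 2.82 in low stretch hypercapnia, and the difference from the latter passed (1.29 ± 0.27, adjusted p 0.00137).

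Slc7a11 belongs to the list of antioxidant and glutathione genes driven by NRF2, the transcription factor released by oxidants, of which 17 of 23 rose and 1 fell (median 0.46). Srxn1, the sulfiredoxin that repairs oxidised peroxiredoxins, read 7.96, 7.79, 7.82, 7.46 and 7.73 in the controls and 9.53 to 10.39 (median 10.14) after ventilation. It rose 4.93-fold with no overlap (adjusted p 3.25e-13). Gclc, the catalytic subunit of glutathione synthesis' first enzyme, read 11.11, 11.32, 11.18, 11.04 and 10.99 in the controls and 12.55 to 12.94 (median 12.80) in the ventilated lungs. It rose 3.15-fold, and the SE of its change of 1.66 was 0.09 (adjusted p 2.05e-15). Hmox1, heme oxygenase, rose 3.42-fold from 8.77 ± 0.16 to 10.55 ± 0.41.

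Slc7a11 is also induced by ATF4, the transcription factor of amino acid shortage. Of 21 ATF4 amino acid response genes 15 rose and none fell (median 0.64). They included the amino acid transporter genes Slc7a5 (2.22-fold, 8.00 ± 0.25 to 9.15 ± 0.14) and Slc7a1 (2.2-fold, 7.77 ± 0.09 to 8.90 ± 0.13), and Mthfd2, an enzyme of mitochondrial one-carbon metabolism (2.47-fold, 6.71 ± 0.16 to 8.02 ± 0.28). Of 20 chaperones and stress sensors of the endoplasmic reticulum 6 rose and 1 fell (median 0.02), led by Edem1 (0.51), Xbp1 (0.46), Atf6 (0.33) and Dnajb9 (0.31). The call of Dnajb9 was lost without control replicate 1 (limma adjusted p 0.06) and without control replicate 2 (adjusted p 0.0688). Of 17 heat shock genes 7 rose (median 0.22). Hspb8, a small heat shock protein, rose from 9.57 ± 0.08 to 10.63 ± 0.09 with no overlap. Hspa1a, the inducible HSP70, ranged widely in the ventilated group, 7.52 to 10.21 (median 8.59), and its rise of 1.13 (adjusted p 0.0361) lost its call in 12 of 26 alternative analyses. Of 18 p53 and growth arrest targets 10 rose and 1 fell (median 0.43). Gadd45a, a growth arrest and DNA repair gene, rose 2.62-fold, Tnfrsf10b, a death receptor, 2.07-fold, Gadd45g 2.04-fold and the death receptor gene Fas 1.88-fold, all 4 without overlap.

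Of 27 inflammatory cytokines and chemokines 15 rose, 2 fell and 10 did not pass (median 0.57). Il6, the cytokine of the acute phase response, read 4.32, 4.54, 4.30, 4.37 and 4.11 in the controls, a low and even level, and 6.63 to 8.23 (median 7.46) in the ventilated lungs. It rose 8.17-fold (3.03 ± 0.24, adjusted p 7.73e-12). Ptgs2, the inducible cyclooxygenase that starts prostaglandin synthesis, read 8.65, 9.07, 8.81, 8.30 and 8.49 in the controls and 11.20 to 12.20 (median 11.42) after ventilation. The groups lay 2.13 units apart, and Ptgs2 rose 7.14-fold (adjusted p 7.67e-12). Il6 changed by 0.32 in low stretch hypercapnia and 0.08 in low stretch normocapnia, and Ptgs2 by 0.77 and 0.93. The difference of high from low stretch under hypercapnia passed for both, 2.72 ± 0.24 for Il6 (adjusted p 1.06e-09) and 2.06 ± 0.23 for Ptgs2 (adjusted p 8.21e-08). Cxcl2, a neutrophil chemokine, read 6.20, 5.87, 5.72, 5.65 and 5.68 in the controls and 7.25 to 10.05 (median 7.64) in the ventilated lungs. It rose 4.36-fold without overlap. Il1b read 7.90, 7.12, 6.80, 6.86 and 9.50 in the controls and 8.90 to 10.77 (median 9.56), so that control replicate 5 lay among the ventilated arrays, and its change was 2.10 ± 0.31 (adjusted p 1.8e-06).

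Receptors and feedback genes of the same pathways rose too. Of 16 interleukin-1 receptor and inflammasome genes 10 rose and 1 fell (median 0.46). The rises included Il18rap, a subunit of the interleukin-18 receptor (2.3-fold), and Casp4, an inflammatory caspase (2.36-fold). Of 19 Toll-like receptor, CD14 and myeloid lectin receptor genes 14 rose and none fell (median 0.67). Cd14, the co-receptor for endotoxin, rose 3.19-fold from 7.97 ± 0.33 to 9.65 ± 0.58, and Tlr13, a receptor for bacterial ribosomal RNA, 3.57-fold from 7.67 ± 0.60 to 9.51 ± 0.38. Of 19 feedback regulators of NF-kappaB 15 rose and 1 fell (median 0.53). Bcl3 rose 2.96-fold, Nfkbiz 1.96-fold, Birc3 1.83-fold and Tnfaip3, which encodes the ubiquitin-editing inhibitor A20, 1.74-fold. Of 23 interleukin-6 family receptors and STAT3 targets 16 rose and 1 fell (median 0.51). Socs3, the feedback inhibitor of interleukin-6 signalling, read 7.82, 7.87, 7.78, 7.73 and 7.75 in the controls and 9.64 to 10.82 (median 9.86) after ventilation. The controls were even, and Socs3 rose 4.68-fold (adjusted p 8.34e-11). The acute phase gene Saa3 varied among the ventilated lungs, 7.71 to 10.45 (median 8.65), above controls of 5.83 to 6.77, and rose 5.74-fold. The fibrinogen gene Fgg rose 2.34-fold. Of 25 prostaglandin and leukotriene genes 8 rose and 4 fell. Beside Ptgs2, Alox5ap, the activating protein of 5-lipoxygenase, rose by 1.01 and Ptger4, a receptor for prostaglandin E2, by 0.88, while Ptgfr, the receptor for prostaglandin F2 alpha, changed by -0.97 (adjusted p 1.59e-06).

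Of 21 interferon-stimulated genes 2 rose and none fell (median 0.18), beside 16.3% higher and 17.6% lower of all genes. The 2 rises were Oas3 (1.10 ± 0.28) and Oas2 (0.89 ± 0.26), sensors of double-stranded RNA. The list's mean level was 9.83 on ventilated replicate 10. Without that array 4 genes of the list were lower than in the controls.

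Immediate-early genes, most of them encoding transcription factors, rose nearly as a group: 23 of 28 rose, 2 fell and 3 did not pass (median 0.90). Atf3, a stress-induced repressor, read 7.69, 7.54, 7.93, 7.71 and 7.67 in the controls and 9.90 to 10.66 (median 10.17) in the ventilated lungs. It rose 5.85-fold with no overlap (adjusted p 2.3e-10). Maff, a small MAF protein, read 6.49, 6.40, 7.05, 6.86 and 6.77 and 8.33 to 9.45 (median 8.85), a rise of 4.5-fold. Myc read 7.50, 7.30, 7.62, 7.76 and 7.77 in the controls and 9.10 to 9.65 (median 9.28) after ventilation, a rise of 3.39-fold. Both genes were separate between the groups. The nuclear receptor gene Nr4a3 rose by 1.54 and Nr4a1 by 1.25. The AP-1 genes Fos (1.44), Fosl2 (1.49), Fosl1 (1.32), Junb (1.22) and Fosb (1.08) and the zinc finger genes Egr2 (1.40) and Egr1 (1.15) rose too. The 2 falls were Klf2 (-1.01), a factor that endothelial cells express under laminar flow, and Klf4 (-0.34). The list's median change was 0.98 in high stretch normocapnia, 0.05 in low stretch hypercapnia and -0.07 in low stretch normocapnia, and 21 of its genes were higher than in low stretch hypercapnia, none lower.

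Srf encodes serum response factor, which binds the CArG box of many immediate-early promoters, its own included. Srf rose by 0.60 ± 0.05 (adjusted p 4.88e-11). Of the 21 genes of the list with a promoter in the RefSeq table for build GRCm38.p6, 3 (14.3%) held a CArG box without mismatch in the 250 bases before the start: Egr2, Srf and Zfp36. Over all 27025 genes of that table the share was 1.62%, both strands searched. The Srf promoter is shown because it holds the motif bound by its own product, at positions -82 to -73 and -62 to -53 from the start. It spans chr17:46556163-46556412 on the minus strand, upstream of the gene, and capitals mark the 2 CArG boxes.
Srf promoter: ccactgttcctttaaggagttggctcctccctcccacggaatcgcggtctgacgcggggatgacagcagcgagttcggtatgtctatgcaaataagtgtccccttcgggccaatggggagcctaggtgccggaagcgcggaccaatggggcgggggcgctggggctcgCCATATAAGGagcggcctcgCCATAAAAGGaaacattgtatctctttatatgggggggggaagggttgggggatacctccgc

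A match of letters is a description of the window and does not show binding in these lungs.

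The genes that restrain MAP kinase signalling, the DUSP phosphatases and Sprouty proteins, rose for 11 of 19 and fell for 4 (median 0.45). Dusp8 read 8.40, 8.35, 8.23, 8.13 and 7.98 in the controls and 9.07 to 9.30 (median 9.17) in the ventilated lungs. It rose by 0.96 ± 0.07 and stood 1.09 above low stretch hypercapnia (adjusted p 5.95e-13). Spry4 rose by 1.44, Dusp16 by 1.12 and Errfi1, an inhibitor of the EGF receptor, by 0.67. Of 19 EGF receptor ligand, receptor and shedding genes 8 rose and 2 fell (median 0.14). Hbegf, a ligand, rose 2.15-fold from 9.78 ± 0.12 to 10.89 ± 0.31, Rhbdf2, a partner of the sheddase ADAM17, 1.82-fold, Egfr 1.66-fold and P2ry2, a receptor for ATP, 2.02-fold. The sheddase gene Adam17, which the laboratory has studied, was at -0.08 ± 0.06 and did not pass (adjusted p 0.354). Of 22 targets of the mechanically sensitive factors YAP and SRF 7 rose and 6 fell (median 0.09). Ccn1, a matricellular protein, rose 1.94-fold from 10.64 ± 0.28 to 11.60 ± 0.44. Ccn2, often used as a readout of YAP, was at 0.02 ± 0.18 and did not pass (adjusted p 0.943).

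Of 18 genes of injured epithelium, claudins, keratins and Sfn, 15 rose and 1 fell (median 0.74). Cldn4, a sealing claudin of tight junctions, read 8.20, 8.06, 7.88, 8.13 and 7.88 in the controls and 10.07 to 10.80 (median 10.48) after ventilation. It rose 5.51-fold (adjusted p 5.49e-15). Sfn, an epithelial member of the 14-3-3 adaptor proteins, read 7.60, 7.42, 7.37, 7.05 and 8.13 and 9.45 to 10.47 (median 10.30). It rose 6.32-fold. Both genes were far from overlap. Krt18, a keratin of simple epithelia, rose 2.91-fold from 9.95 ± 0.17 to 11.49 ± 0.16, and Plaur, the urokinase receptor, 3.55-fold from 8.81 ± 0.30 to 10.63 ± 0.31. The median change of this list was 0.91 in high stretch normocapnia but 0.17 and 0.08 in low stretch hypercapnia and normocapnia. Of its 18 genes 15 were higher than in low stretch hypercapnia, and 3 were lower than in high stretch normocapnia.

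Of 19 alveolar type 2 and surfactant genes 1 rose and 8 fell (median -0.10). The type 2 markers Sftpc, Sftpb and Sftpa1 did not pass. Etv5, a transcription factor needed to maintain type 2 cells, read 10.40, 10.50, 10.31, 10.14 and 9.91 in the controls and 8.87 to 9.54 (median 9.25) after ventilation. Etv5 was 2.03-fold lower without overlap (adjusted p 4.51e-11). Slc34a2, the phosphate transporter of type 2 cells, read 13.28, 13.34, 13.32, 13.31 and 13.28 in the controls, which spanned 0.07 units, and 12.61 to 13.04 (median 12.90) in the ventilated lungs, a change of -0.40 ± 0.05. Lpcat1, an enzyme of surfactant lipid synthesis, fell by 0.76 and Cebpa by 0.49. Etv5, Slc34a2 and Cebpa were also lower than in high stretch normocapnia, with differences of -0.37, -0.23 and -0.28. Of 15 alveolar type 1 genes 6 fell and 1 rose. The type 1 markers Ager (-0.05, limma adjusted p 0.411) and Hopx (0.05, adjusted p 0.506) did not pass. Rtkn2, a marker of type 1 cells, read 10.85, 10.98, 11.13, 10.96 and 11.09 in the controls and 9.68 to 10.29 (median 9.95). It was 2.11-fold lower (adjusted p 1.88e-11). The caveolin gene Cav1 changed by -0.28, and Gprc5a, a retinoic acid induced receptor, was the 1 rise (0.30).

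Of 18 motile cilia genes 10 fell and none rose (median -0.22). Fam216b read 8.80, 8.94, 8.95, 8.55 and 8.79 in the controls and 7.13 to 8.00 (median 7.60) in the ventilated lungs, 2.3-fold lower. Rsph4a, a radial spoke protein, was 2-fold lower, from 8.77 ± 0.13 to 7.77 ± 0.27. Foxj1 was 1.48-fold lower, from 8.21 ± 0.05 to 7.64 ± 0.10, and Gmnc, a regulator that commits cells to carry many cilia, was among the 15 largest falls of all genes (-1.36 ± 0.10, 6.29 ± 0.20 to 4.93 ± 0.25). Each of the 4 was separate between the groups. The median of the list was -0.33 in high stretch normocapnia, -0.07 in low stretch hypercapnia and -0.13 in low stretch normocapnia, and 6 of its genes were lower than in low stretch hypercapnia. Of 15 club and goblet cell genes 6 fell, and 3 without control replicate 1 or without control replicate 2, beside 17.6% of all genes. Scgb1a1, the main secretoglobin of club cells, did not pass (-0.03, adjusted p 0.544). Scgb3a2 (-0.39) and Scgb3a1 (-0.44), secretoglobins of the airway, were among them.

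Of 16 alveolar fluid clearance genes 5 rose and 4 fell (2 without control replicate 3, and 2 without control replicate 5 and ventilated replicate 10). Cftr, the chloride channel, rose by 0.71 ± 0.11, and the kinase gene Sgk1 by 0.50, while the water channel gene Aqp4 changed by -0.62. Cftr was higher than in high stretch normocapnia (0.44 ± 0.09, adjusted p 0.00243) and than in low stretch hypercapnia (0.78 ± 0.11, adjusted p 9.18e-06). Carbonic anhydrases and the transporters of bicarbonate and protons handle the acid that CO2 forms. Of 29 measured 3 rose, 4 fell and 22 did not pass (median -0.06), beside 16.3% higher and 17.6% lower of all genes. Car13 rose by 0.74 and Slc4a4 by 0.31, while Car8 and Slc4a5 changed by -0.56 and -0.52. Of 18 proton and bicarbonate sensors 5 rose and 2 fell. The potassium channel gene Kcnk1 read 9.20, 9.34, 9.47, 9.57 and 9.27 in the controls and 10.30 to 10.72 (median 10.52) after ventilation, 2.24-fold higher. Gpr65, a proton-sensing receptor of leukocytes, rose 2.59-fold from 7.36 ± 0.20 to 8.73 ± 0.41. Neither passed against high stretch normocapnia (-0.02, adjusted p 0.914; 0.14, adjusted p 0.729).

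Of the 15 genes with the largest falls 7 are known from blood vessels, a tally made after their values were seen. Edn1, which encodes the vasoconstrictor endothelin-1, read 9.98, 9.87, 10.16, 10.39 and 10.07 in the controls and 8.04 to 8.51 (median 8.22) in the ventilated lungs. The highest ventilated array lay 1.36 units below the lowest control. Edn1 was 3.59-fold lower (-1.84 ± 0.12, adjusted p 5.28e-14). Aplnr, the apelin receptor, read 9.91, 9.71, 9.46, 9.31 and 9.66 in the controls and 7.45 to 8.21 (median 7.93) after ventilation. It was 3.37-fold lower (adjusted p 1.76e-13). Clec14a, a lectin-like membrane protein of endothelium, read 11.12, 11.08, 11.14, 11.14 and 11.07 in the controls and 8.78 to 9.74 (median 9.54). The controls spanned 0.07 units, and Clec14a was 3.15-fold lower. Tmem100, an endothelial protein under the control of BMP signalling, was 3.1-fold lower (12.79 ± 0.18 to 11.16 ± 0.25). Meox2, a homeobox factor of vessels, was 3.07-fold lower (8.63 ± 0.12 to 7.01 ± 0.51), Myct1 2.86-fold (9.38 ± 0.23 to 7.86 ± 0.44) and Gja5, the gap junction protein connexin 40 of arterial endothelium, 2.49-fold (9.29 ± 0.36 to 7.98 ± 0.28). Among the 15 largest falls were also Tnfsf10, the death ligand TRAIL (3.35-fold lower), the cofactor gene Lbh (3.23-fold), the kinase gene Nuak1 (2.86-fold), the planar polarity gene Prickle1 (2.67-fold) and the transporter gene Slc10a5 (2.62-fold).

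**Figure D3:**
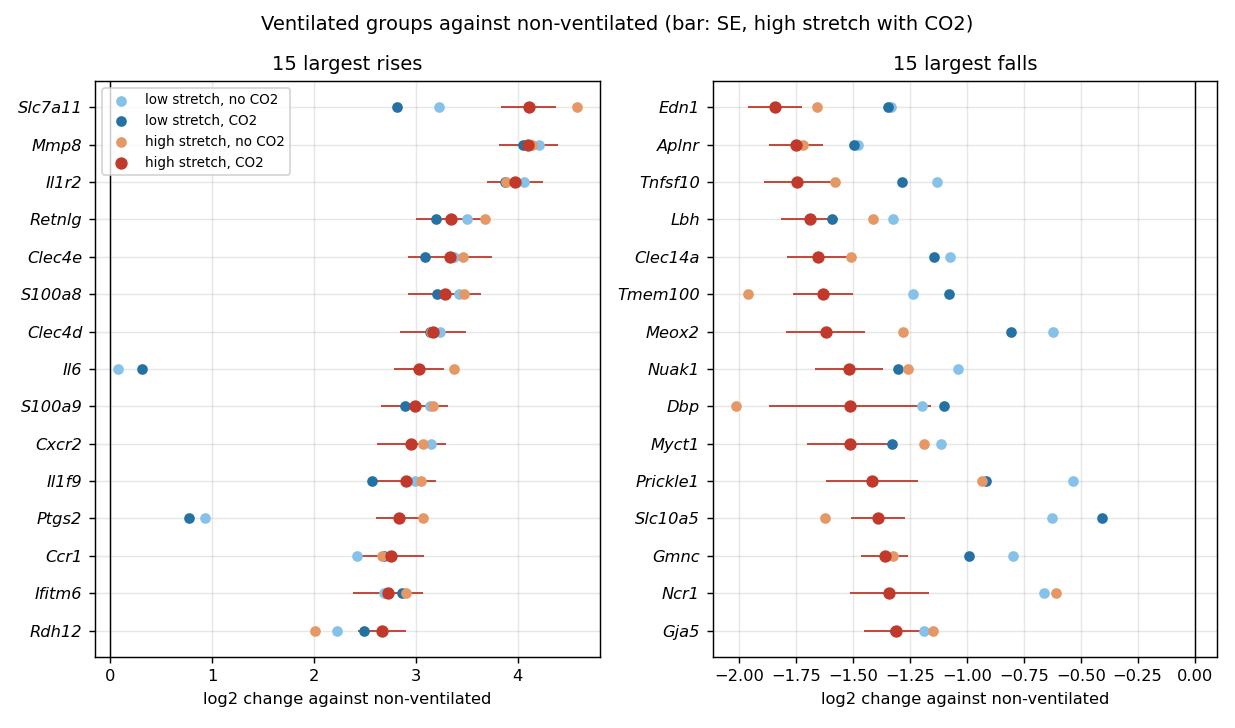
Change from the non-ventilated lungs, in log2 units, of the 15 genes with the largest rises and the 15 with the largest falls in high stretch hypercapnia, shown for the 4 ventilated groups with the SE of high stretch hypercapnia as bars. The points of the 4 groups lie close together for Mmp8 and Il1r2, while Il6 and Ptgs2 are near 3 at high stretch and below 1 at low stretch; all groups share the 5 control arrays.

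As groups, 16 of 24 pan-endothelial genes fell and 2 rose (median -0.39). Sox18 and Sox17, transcription factors of endothelium, were 2.44-fold and 1.79-fold lower, and Egfl7 2.28-fold. Pecam1, the general endothelial marker CD31, fell by 0.14 only. Cdh5, the other endothelial marker looked for, was at -0.05 and did not pass (limma adjusted p 0.386). Of 18 arterial and Notch genes 11 fell and 1 rose (median -0.39): the Notch ligand gene Jag1 changed by -0.63 ± 0.06, Hey1, a Notch target, by -0.82 ± 0.17 and Nrarp by -0.56. Of 16 VEGF and angiopoietin ligands and receptors 12 fell and 2 rose (median -0.41). Kdr, the main VEGF receptor, read 11.70, 11.78, 11.67, 11.45 and 11.66 in the controls and 10.63 to 11.10 (median 10.94) in the ventilated lungs, 1.7-fold lower. The tip cell gene Esm1 was 1.96-fold lower and Angpt2 1.62-fold, while Angptl4 rose by 0.90. Of 19 BMP signalling genes 10 fell and none rose (median -0.22), with Smad6, an inhibitory SMAD, 2.27-fold lower, Id4 1.83-fold, Smad9 1.72-fold and Smad7 1.69-fold. Of 15 apelin, endothelin and adrenomedullin genes 7 fell and 2 rose. Calcrl, the adrenomedullin receptor subunit, was 1.73-fold lower, and the ligand gene Adm rose 2.71-fold from 7.95 ± 0.59 to 9.38 ± 0.50.

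In the other groups the median of the pan-endothelial list was -0.39 in high stretch normocapnia, -0.32 in low stretch hypercapnia and -0.37 in low stretch normocapnia. In the same order the medians were -0.31, -0.22 and -0.32 for arterial and Notch genes, -0.39, -0.32 and -0.26 for the VEGF and angiopoietin list and -0.34, -0.20 and -0.22 for BMP signalling. For the apelin, endothelin and adrenomedullin list, at -0.20 here, they were -0.41, -0.20 and -0.18. Of the 24 pan-endothelial genes 6 were lower than in low stretch hypercapnia (3 without low stretch hypercapnia replicate 2 or replicate 3) and 3 higher. The latter count was 1 without any one of low stretch hypercapnia replicates 2 and 5 and high stretch hypercapnia replicates 6, 8 and 10. Leukocyte adhesion genes went both ways, with 3 of 13 higher and 4 lower (2 without control replicate 5 and ventilated replicate 10). Sele, the endothelial selectin induced by cytokines, read 6.66, 6.62, 6.74, 6.75 and 6.62 in the controls and 6.98 to 8.36 (median 7.54) after ventilation, a rise of 0.89 ± 0.15. Selplg, the selectin ligand carried by leukocytes, rose by 0.92, and Icam2, which endothelium expresses constitutively, changed by -0.48.

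Coagulation genes rose for 12 of 21 and fell for 1 (median 0.34). F3, tissue factor, the starter of clotting, read 9.03, 9.28, 9.55, 9.50 and 9.07 in the controls and 10.78 to 11.28 (median 11.05) in the ventilated lungs. It rose 3.36-fold without overlap (adjusted p 2.14e-14). Thbs1, thrombospondin-1 of platelets and matrix, read 10.85, 10.95, 10.998, 10.51 and 10.88 in the controls and 12.52 to 13.65 (median 12.95) after ventilation, a rise of 4.46-fold. The factor X gene F10 rose 2.92-fold. Of 15 genes of hyaluronan and provisional matrix 11 rose and 1 fell (median 0.50). Has1, a hyaluronan synthase, read 6.53, 6.70, 7.03, 6.78 and 6.32 in the controls and 8.08 to 9.12 (median 8.31), a rise of 3.35-fold. Tnfaip6, which crosslinks hyaluronan, rose 3.23-fold from 6.72 ± 0.33 to 8.41 ± 0.54, and Vcan, the proteoglycan versican, 4.54-fold from 7.69 ± 0.36 to 9.87 ± 0.65. The levels of Has1 and Tnfaip6 stood 1.44 and 1.41 above low stretch hypercapnia, and Vcan 0.03 (adjusted p 1.91e-07, 5.16e-05 and 0.974). Of 20 tissue metalloproteinases, ADAMTS proteases and TIMPs 10 rose and 4 fell. The aggrecanase gene Adamts4 rose 2.98-fold, Mmp19 2.88-fold, Adamts9 2.39-fold and Adamts1 2.1-fold, all 4 without overlap.

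Of 20 fibroblast and collagen genes 9 fell (5 without control replicate 1) and 4 rose. Tcf21, a transcription factor of lung fibroblasts, read 10.15, 10.31, 10.52, 10.45 and 10.51 in the controls and 8.98 to 9.70 (median 9.28) in the ventilated lungs, 2.12-fold lower. Fgf10, the fibroblast growth factor of epithelial progenitors, was 1.72-fold lower and the collagen gene Col3a1 1.4-fold. Of 16 smooth muscle and pericyte genes 5 fell (3 without control replicate 2) and 2 rose. The smooth muscle actin gene Acta2 changed by -0.29 ± 0.08, and the potassium channel gene Kcnj8 of pericytes by 0.40 ± 0.10.

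Of 18 B cell genes 15 fell and none rose (median -0.65). Ms4a1, which encodes CD20, read 8.71, 8.02, 8.39, 8.09 and 8.40 in the controls and 6.57 to 7.34 (median 7.05) after ventilation. The groups did not overlap, and Ms4a1 was 2.48-fold lower (adjusted p 1.79e-09). Cr2, a complement receptor of B cells, was 2.28-fold lower (7.09 ± 0.37 to 5.90 ± 0.14), Fcer2a 2.33-fold and Bank1 2.03-fold. The median of the list was -0.93 in low stretch hypercapnia and -0.89 in low stretch normocapnia. Against low stretch hypercapnia 7 B cell genes were higher, a count that was 3 without low stretch hypercapnia replicate 5 and 11 without high stretch hypercapnia replicate 6. Of 20 T cell and natural killer genes 6 fell (3 without control replicate 1, and 3 without control replicate 5 and ventilated replicates 1 and 2), beside 17.6% of all genes. Ncr1, the activating receptor NKp46 of natural killer cells, read 6.92, 7.20, 7.15, 6.99 and 7.01 in the controls and 5.39 to 6.08 (median 5.66) in the ventilated lungs. It was 2.53-fold lower without overlap (adjusted p 1.8e-07), one of the 15 largest falls. Nkg7, a cytotoxic granule protein, changed by -0.47 and Cd3g by -0.39, the latter lost in 8 of 26 alternative analyses.

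Of 22 monocyte and macrophage genes 11 rose (6 without control replicate 2) and 2 fell (median 0.27). Fcgr4, an activating IgG receptor, rose 2.87-fold from 7.56 ± 0.48 to 9.09 ± 0.43, and F13a1, coagulation factor XIII subunit A, 2.71-fold from 8.78 ± 0.57 to 10.22 ± 0.58. Of 9 platelet genes 6 rose and none fell (median 0.37), and 3 rose without control replicate 5 and ventilated replicates 1 and 2. Pf4, the chemokine platelet factor 4, changed by 0.61 ± 0.13 and Ppbp by 0.60 ± 0.19. The call of Ppbp was lost with array weights (limma adjusted p 0.0555), without control replicate 5 (adjusted p 0.0611) and without control replicate 5 and ventilated replicates 1 and 2 (adjusted p 0.0993). Of 11 mast cell and basophil genes 2 rose and 4 fell. Hdc, the enzyme that makes histamine, rose 2.47-fold from 9.84 ± 0.40 to 11.14 ± 0.34, and the stem cell factor receptor gene Kit was 1.83-fold lower (11.18 ± 0.06 to 10.31 ± 0.17). Tissues that can be carried along with a lung were measured too. None of 4 red cell genes passed (median 0.17). At unadjusted p under 0.05 the number was 1. Of 15 cardiac muscle genes of the pulmonary veins 2 fell, Tbx20 (-0.36) and Actc1 (-0.39), the latter lost in 10 of 26 alternative analyses. Of 16 adipose, skeletal muscle and mesothelial genes 1 rose, Cidea (0.61), and 2 fell, Lep (-0.39) and Lrrn4 (-0.54), a count of 4 without high stretch hypercapnia replicate 4. The counts of the mast cell list and of these tissue lists stand beside 16.3% higher and 17.6% lower of all genes.

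**Figure D4:**
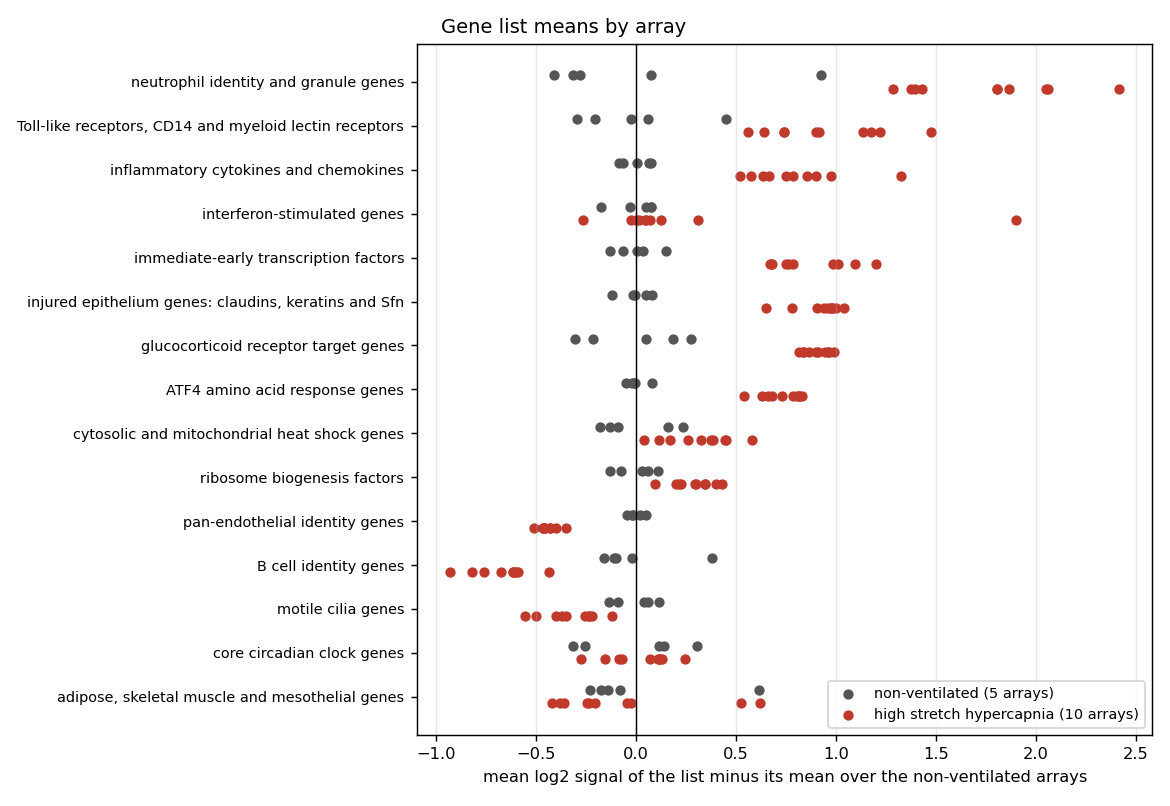
Mean log2 level of 15 gene lists on each non-ventilated and high stretch hypercapnia array, minus the mean of the non-ventilated group. Control replicate 5 is high in neutrophil genes (8.17) and in adipose, skeletal muscle and mesothelial genes (7.97), and ventilated replicate 10 is high in interferon-stimulated genes (9.83), all given as levels before the subtraction.

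Metallothioneins are small proteins that bind zinc and copper and are induced by metals through the factor MTF1, and by glucocorticoids. Mt2 and Mt1 lie next to each other on chromosome 8. Their promoters are shown because both genes rose and the metal response core, TGCACNC or TGCGCNC on either strand, can be read in them. Each stretch is the 250 bases before the start site on the plus strand in RefSeq's GRCm38.p6, Mt2 at chr8:94172368-94172617 and Mt1 at chr8:94178839-94179088, and capitals mark the cores.
Mt2 promoter: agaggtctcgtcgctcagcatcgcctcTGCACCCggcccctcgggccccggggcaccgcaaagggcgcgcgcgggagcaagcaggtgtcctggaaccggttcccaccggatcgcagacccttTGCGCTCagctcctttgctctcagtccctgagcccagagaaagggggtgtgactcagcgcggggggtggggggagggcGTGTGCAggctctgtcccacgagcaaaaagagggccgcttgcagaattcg
Mt1 promoter: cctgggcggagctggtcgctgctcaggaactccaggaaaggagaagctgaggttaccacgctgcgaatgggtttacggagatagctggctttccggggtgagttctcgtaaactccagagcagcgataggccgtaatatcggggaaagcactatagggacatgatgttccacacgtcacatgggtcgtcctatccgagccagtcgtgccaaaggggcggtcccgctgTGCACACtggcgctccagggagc

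Within these 250 bases Mt2 holds 3 cores, at positions -223 to -217, -128 to -122 and -50 to -44 from the RefSeq start. Mt1 holds 1 there, at -23 to -17. Bases beyond the windows were not searched, so these are not full counts for either gene. A core was found in the promoters of 23.8% of the 27025 genes, and 3 or more in 1.46%. Of the 13 genes of the metallothionein and zinc transporter list with a promoter there, 8 (61.5%) held 1 or more, as did 12 of the 21 immediate-early genes (57.1%). Mt2 read 10.77, 10.27, 10.46, 10.57 and 10.27 in the controls and 12.61 to 13.46 (median 13.05) in the ventilated lungs. It rose 6.05-fold (2.60 ± 0.16, adjusted p 3.06e-14). Mt1 read 10.68, 10.82, 11.04, 10.87 and 10.59 in the controls and 12.49 to 13.19 (median 12.74), a rise of 3.96-fold (adjusted p 1.61e-13). Neither overlapped, and both stood above low stretch hypercapnia, by 0.68 (adjusted p 0.00524) and 0.59 (adjusted p 0.00317). Of the 15 genes of the list 6 rose and 1 fell. Slc39a14, a zinc and iron importer, rose 2.96-fold from 7.80 ± 0.12 to 9.36 ± 0.37, and the zinc exporter gene Slc30a4 by 0.49.

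Glucocorticoid receptor targets, genes that rise under the stress hormone corticosterone, rose for 18 of 22 and fell for 1 (median 0.66). Fkbp5, a co-chaperone of the receptor, read 8.27, 8.52, 9.32, 10.01 and 9.53 in the controls and 11.51 to 11.84 (median 11.65) in the ventilated lungs. The controls spanned 1.73 units and the ventilated lungs 0.33, without overlap, and Fkbp5 rose 5.74-fold (adjusted p 1.62e-14). Pdk4, the kinase that holds back pyruvate oxidation, rose 3.61-fold from 8.59 ± 0.33 to 10.44 ± 0.23. The median of this list was 0.67 in high stretch normocapnia, 0.61 in low stretch hypercapnia and 0.69 in low stretch normocapnia. Of 17 core clock genes 6 rose and 5 fell. Dbp, a clock-driven transcription factor, varied among the controls, 9.45, 10.44, 10.61, 10.40 and 8.58, and was 7.36 to 9.46 (median 8.50) after ventilation. Control replicates 1 and 5 lay within the ventilated range, and the change was -1.51 ± 0.36 (adjusted p 0.000939). Per3 (-1.01) and Hlf (-0.94) also overlapped. Nfil3, the repressor that opposes Dbp, rose 3.54-fold without overlap. The time of day at which each lung was taken is not given in the sources used here.

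Of 26 hypoxia-inducible and glycolysis genes 15 rose and 4 fell (median 0.25). Slc2a1, the general glucose transporter, read 9.22, 9.28, 9.33, 9.18 and 9.57 in the controls and 10.24 to 11.17 (median 10.58) after ventilation, 2.48-fold higher. Hk2, a hexokinase, rose 2.14-fold (1.10 ± 0.07, 8.64 ± 0.14 to 9.74 ± 0.15) and Slc2a3 3.21-fold. Of 18 heme and iron genes 8 rose (4 without control replicate 2) and 1 fell, with the iron exporter gene Slc40a1 at 1.06, the siderophore-binding gene Lcn2 at 0.84 and Steap4 at 0.65 beside Hmox1. Of 24 respiratory chain genes 2 fell, Sdha by 0.15 and Atp5c1 by 0.12, and none passed without control replicate 5 and ventilated replicate 10. Of 24 cell cycle genes 4 rose (2 without control replicate 2), among them Plk1 (0.32), and 3 fell, among them Ccnd1 (-0.33) and Mcm2 (-0.27). The respiratory chain and cell cycle counts stand beside 16.3% higher and 17.6% lower of all genes.

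The list of cholesterol synthesis, the pathway from mevalonate to cholesterol, and of sterol sensing had 12 of 26 genes higher and 3 lower (median 0.12). Pmvk, the kinase that phosphorylates mevalonate phosphate, read 8.44, 8.38, 8.91, 8.58 and 8.58 in the controls and 10.75 to 11.65 (median 10.996) in the ventilated lungs. The lowest ventilated array was 1.84 units above the highest control. Pmvk rose 5.55-fold (2.47 ± 0.16, adjusted p 7.86e-14), against 1.72 in high stretch normocapnia, 1.69 in low stretch hypercapnia and 0.76 in low stretch normocapnia on the log2 scale. Ch25h, which makes 25-hydroxycholesterol, rose 3.09-fold, and Cyp51 and Lss, enzymes of the sterol ring, 1.68-fold and 1.67-fold. Ribosome biogenesis factors, which assemble ribosomes in the nucleolus, rose for 16 of 25 and fell for 1 (median 0.24). Gnl3, nucleostemin, read 8.24, 8.10, 8.31, 8.00 and 8.43 in the controls and 8.73 to 9.38 (median 9.12) after ventilation, a rise of 0.86 ± 0.12. Nop58 rose by 0.73, Rrp12 by 0.53 and Heatr1 by 0.50.

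The comparison with high stretch normocapnia separates the added CO2 from the ventilator settings, which both groups shared. Of the 19938 genes 1109 passed (5.56%), 497 higher (2.49%) and 612 lower (3.07%) under hypercapnia, and none by 1 log2 unit or more. The split depended on the analysis. With each array centred on its median it was 354 higher and 721 lower, and with array weights 1048 and 1004. Without high stretch hypercapnia replicate 8, 561 of 1087 genes were higher. Pmvk differed by 0.75 ± 0.13 (limma adjusted p 0.000577). Its level was 9.92 to 10.80 (median 10.24) in the 10 normocapnia arrays and 10.75 to 11.65 (median 10.996) in the hypercapnia arrays. Ttpa, the alpha-tocopherol transfer protein, which carries vitamin E and has been studied by the laboratory, was at 5.61 to 6.47 (median 6.22) under normocapnia and 6.39 to 7.27 (median 6.82) under hypercapnia. The difference was 0.73 ± 0.11 (adjusted p 8.29e-05), and Ttpa also rose against the non-ventilated lungs (0.58 ± 0.14, adjusted p 0.000791). The change of Ttpa was -0.15 in high stretch normocapnia, 0.93 in low stretch hypercapnia and 0.60 in low stretch normocapnia. The other 6 of the 8 largest were P2ry10, a lysophosphatidylserine receptor of lymphocytes (0.67), Rdh12, a retinal reductase (0.66), the mast cell and basophil protease gene Prss34 (0.55), the cholecystokinin receptor gene Cckar (0.53), Plcxd3 (0.51) and the amino acid transporter gene Slc38a4 (0.50). The call of Rdh12 (adjusted p 0.0355) was lost in 9 of 29 alternative analyses. Against the non-ventilated lungs Rdh12 rose in high stretch hypercapnia by 2.54 to 2.96 over 26 alternative analyses, and its call there was kept in each.

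Of the 8 genes that were furthest below normocapnia, Hmox1, Cxcl5, Ccl2 and Timp1 had risen against the non-ventilated lungs, by 1.77, 0.79, 1.04 and 1.05 with CO2 beside 2.69, 1.69, 1.87 and 1.78 without it. Hmox1 was at 10.90 to 12.10 (median 11.48) under normocapnia and 9.89 to 11.07 (median 10.59) under hypercapnia. The difference was -0.92 ± 0.19 (adjusted p 0.00233). Cxcl5, a neutrophil chemokine of epithelium, was at 6.87 to 8.54 (median 7.34) and 6.11 to 7.59 (median 6.56), a difference of -0.90 ± 0.17 (adjusted p 0.00102). Ccl2, the monocyte chemokine, was at 6.83 to 8.46 (median 8.01) and 6.54 to 7.74 (median 6.85), a difference of -0.83 ± 0.18 (adjusted p 0.00396). The ranges of the 2 groups overlapped in each of the 3 genes. Timp1, an inhibitor of metalloproteinases, differed by -0.73. Spic, a transcription factor of iron-recycling macrophages (-0.86, a call lost without high stretch normocapnia replicate 5), Slc26a4, the anion exchanger pendrin (-0.71), and Ccn2 (-0.71) were lower than under normocapnia and did not pass against the non-ventilated lungs. Ncr1 went below both, -0.73 against normocapnia (adjusted p 0.00124), and its change was -0.61 in high stretch normocapnia and -1.34 in low stretch hypercapnia.

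Among the lists, ribosome biogenesis factors were lower for 20 of 25 and higher for none (median difference -0.27). Against the non-ventilated lungs their median was 0.24 with CO2 and 0.52 without it. Rrp12 differed from normocapnia by -0.43, Utp20 by -0.41, the RNA polymerase I subunit gene Polr1b by -0.41, Nop58 by -0.40 and Mybbp1a by -0.33. Cholesterol synthesis and sterol sensing genes went the other way, with 8 of 26 higher and 1 lower. Against the non-ventilated lungs their median was 0.12 with CO2 and 0.03 without it. It was 0.18 in low stretch hypercapnia and 0.16 in low stretch normocapnia. The 8 higher genes were Pmvk, Mvd, Fdps, Fdft1, Lss, Msmo1, Nsdhl and Dhcr7, all enzymes of cholesterol synthesis. The 1 lower gene was Mylip, the ubiquitin ligase that degrades the LDL receptor. Lss was at 0.41 ± 0.06 (adjusted p 4.21e-05). NRF2 targets were lower for 5 of 23, and for 3 without any one of high stretch normocapnia replicates 1 and 5 and high stretch hypercapnia replicate 2. With array weights the count was 8, and that of the ATF4 list 7. Of the cytokine list 4 were lower, of the ATF4 list 4, and of the immediate-early list 3, namely Egr2 (-0.56), Fosl1 (-0.42) and Myc (-0.41), a count of 5 without high stretch hypercapnia replicate 5. The ATF4 genes Mthfd2 and Slc7a5 differed by -0.60 and -0.44.

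**Figure D5:**
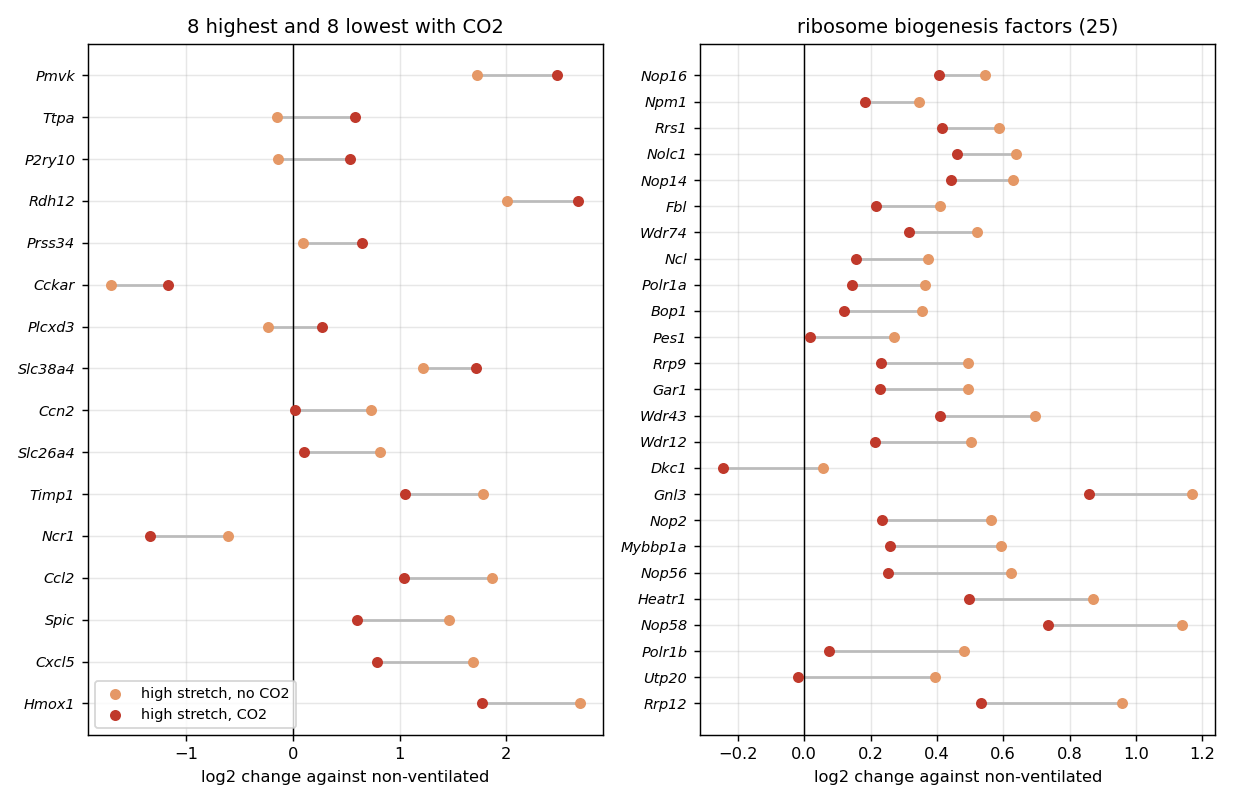
Log2 change against the non-ventilated lungs in high stretch with CO2 (red points) and without it (orange points), joined by a grey line for each gene, for the 8 highest and 8 lowest genes of that comparison (left) and the 25 ribosome biogenesis factors (right). Pmvk stands at 2.47 with CO2 and 1.72 without, Hmox1 at 1.77 and 2.69, and 20 of the 25 ribosome biogenesis factors passed as lower with CO2.

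Low stretch hypercapnia shares the CO2 but not the tidal volume, the end-expiratory pressure, the rate of breaths or the added oxygen, which cannot be told apart. Against low stretch hypercapnia 2017 genes passed (10.1%), 1082 higher (5.43%) and 935 lower (4.69%). A rise of at least 1 log2 unit was found in 39 genes (0.196%), and no fall of that size. Without low stretch hypercapnia replicate 5 the number passing was 1278, and that of genes lower was 488. Without replicate 2 of that group the number of genes lower was 574. Il6 (2.72), Cldn4 (2.08 ± 0.14, adjusted p 2.41e-12), Ptgs2 (2.06) and Atf3 (2.03 ± 0.24, adjusted p 2.46e-07) stood about 2 units or more above it. Sfn was higher by 1.59, Ch25h by 1.51, Nr4a1 by 1.50, Hbegf by 1.13 and Ccn1 by 1.24. Of the lists, cytokines were higher for 11 of 27 and lower for none, hyaluronan and provisional matrix genes for 9 of 15, and ribosome biogenesis factors for 15 of 25. YAP and SRF targets were higher for 9 and lower for 1 of 22. The DUSP and Sprouty genes were higher for 9 and lower for 3 of 19, and ATF4 genes higher for 8 of 21. Some of these counts depended on single low stretch hypercapnia arrays. NF-kappaB regulators were higher for 7 and lower for 1 of 19. The number higher was 12, 3, 4 and 2 without replicates 1, 2, 3 and 5 of that group in turn. Coagulation genes were higher for 7 (3 without replicate 5) and lower for 1. Hypoxia-inducible genes were higher for 6, and for 3 without replicate 2 or replicate 5.

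Edn1 differed from low stretch hypercapnia by -0.50 (adjusted p 0.00519), Tmem100 by -0.55, Clec14a by -0.51 and Meox2 by -0.81. Slc10a5 differed by -0.98 (adjusted p 2.98e-07) and Gmnc by -0.37. The difference did not pass for Aplnr (-0.26, adjusted p 0.183), Lbh (-0.10, adjusted p 0.696) or Gja5 (0.00, adjusted p 0.99). Alox5, the 5-lipoxygenase gene and the third of those the laboratory has studied, rose against the non-ventilated lungs by 0.33 ± 0.09 (adjusted p 0.00444). It passed neither against high stretch normocapnia (-0.14, adjusted p 0.332) nor against low stretch hypercapnia (0.08, adjusted p 0.619).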

How the data were processed

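Lung RNA of single mice was hybridised to Affymetrix mouse arrays. Per the submitters' processing notes, the values were normalized with RMA, and Affymetrix Expression Console and Partek are also named, without versions; the deposited values are on a log2 scale and were used as given. Genes were named through the platform table: of 35557 probe sets 21789 had 1 gene symbol, 1621 several and 12147 were not in the table, and the latter kinds were left out. Symbols were updated by gene ID for 21698. For the 999 genes with several probe sets the one with the highest mean over all arrays was used, which left 19938 genes. The number of arrays per group limits the precision.

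A linear model with 1 mean per group was fitted to all 35 arrays with limma 3.58.1 (R 4.3.3). Moderated tests were two-sided with Benjamini-Hochberg adjustment over all genes, and genes passed at an adjusted p under 0.05. The model was also run on simulated arrays with independent normal values and, for each gene, an equal spread in all groups. Such arrays lack the outlying arrays and unequal spreads seen here, so no conclusion is drawn from them. The titles number the replicates as biological ones, so p-values measure the spread between these mice. The comparisons, the 53 gene lists (1017 genes, 951 measured) and the alternatives were chosen with earlier results of these data known, and lists were not tested. Of the genes that passed, those with the 15 largest changes in each direction were named, leaving out predicted genes, small RNAs, receptor families of smell and antigen receptor segments. To these were added up to 4 passing members of each list with the largest change (where under 2 passed, the 1 or 2 with the smallest p), the 8 largest differences each way from high stretch normocapnia, and Ttpa, Adam17 and Alox5. Other list members were named after their values were seen, as examples of a count. Alternatives were the arrays in the fit, array weights, the variance model, a filter on low levels, the choice of probe set, the scaling, a replicate block and the leaving out of arrays, of which the joint removal of arrays that stood apart was chosen after seeing the data. Promoter sequences are RefSeq's for GRCm38.p6. Comparisons among the other ventilated groups were left out.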

Additional observations from a re-analysis of the deposited data

Results flagged for a closer look

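In 19 of 194 sets of values tested, 1 array lay far from the rest of its group; chance alone flags about 1 in 20 groups, or 9.7 here. Of these, 3 fell on non-ventilated replicate 5, with Ccr1 at 7.95, Rdh12 at 7.29 and the mean of adipose, skeletal muscle and mesothelial genes at 7.97. On non-ventilated replicate 1 the mean level was 8.44 for B cell genes, 8.91 for BMP signalling genes and 8.37 for tissue metalloproteinases, ADAMTS proteases and TIMPs. On non-ventilated replicate 4 it was 8.17 for NF-kappaB feedback regulators and 9.74 for NRF2 genes, and single genes were at 8.49 (Hmox1) and 7.93 (Nuak1). On high stretch hypercapnia replicate 10 interferon-stimulated genes were at 9.83, interleukin-1 receptor and inflammasome genes at 8.9, Ccl2 at 7.74 and Tmem100 at 10.59. The other arrays of the high stretch hypercapnia group that stood apart were replicate 8 for Pmvk (11.65) and Tnfsf10 (7.75), replicate 3 for Ptgs2 (12.2), replicate 5 for Cxcl5 (7.59) and replicate 4 for smooth muscle and pericyte genes (8.55).

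The change from the non-ventilated lungs differed between high stretch with and without CO2 in 1109 genes by the limma test of the difference itself. Among the named genes the change was larger with CO2 for Pmvk (0.75), Ttpa (0.73), P2ry10 (0.67), Rdh12 (0.66), Prss34 (0.55), Plcxd3 (0.51) and Slc38a4 (0.50). For Cckar, which fell in both groups, the difference of 0.53 is a smaller fall with CO2. It was lower with CO2 for Hmox1 (-0.92), Cxcl5 (-0.90), Spic (-0.86), Ccl2 (-0.83), Ncr1 (-0.73), Timp1 (-0.73), Slc26a4 (-0.71) and Ccn2 (-0.71). The call of Spic was lost without high stretch normocapnia replicate 5 (-0.73, adjusted p 0.0514).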

How the results depend on the processing

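The comparison with non-ventilated lungs passed 6748 of the 19938 genes. Under the other planned settings with all these genes it passed between 5638 (replicate block) and 7228 (second quantile normalization). Limited to genes above the median level, a smaller set, it passed 5487. With every probe set tested on its own, 7349 of 21789 probe sets passed. A second quantile normalization split the genes into 2902 higher and 4326 lower, and genes above the median level into 2942 and 2545. The comparison passed 5954 (without control replicate 2) to 6788 genes when each array was left out in turn, and 6727 without control replicate 5. Without non-ventilated replicate 5 and high stretch hypercapnia replicate 10 it passed 6248, and without non-ventilated replicate 5 and high stretch hypercapnia replicates 1 and 2 it passed 6750, both chosen after seeing the data. Against high stretch normocapnia 1109 genes passed, 2052 with array weights, and 855 to 1176 with 1 array left out. Against low stretch hypercapnia 2017 passed, and 1278 to 2191 with 1 array left out. The replicate numbers were not taken to pair the mice. The deviations of same-numbered high stretch hypercapnia arrays had a correlation over 0.1 in 0 of 5 pairs with the controls, 4 of 10 with high stretch normocapnia and 2 of 5 with low stretch hypercapnia, and in 0, 1 and 2 pairs the array correlated best with its own number. With the replicate block the counts were 5638, 1128 and 1269 for the 3 comparisons, the last being more than 1.5 times lower. The cause of these shifts was not tested.

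Of 211 named genes that passed against the non-ventilated lungs 195 passed under every alternative that held them. So did 14 of the 16 genes named for a difference from high stretch normocapnia. Genes below the median level were absent from the fit limited to genes above it. Il6, Ncr1, Ms4a1, Ttpa, Ccl2 and Cxcl5 were among those absent, so their calls were not tried in that fit. Direction reversed only in Ccn2 and Slc26a4, neither of which passed in the first place. Ccn2 was at 0.02 and Slc26a4 at 0.11. Ccn2 became -0.033 after a second quantile normalization, -0.13 without non-ventilated replicate 5, and lay between -0.13 and 0.13 over the fits that left out 1 array. It was -0.053 and -0.10 without the groups of arrays named above. Slc26a4 became -0.062 with array weights and -0.0046 without non-ventilated replicate 5 and high stretch hypercapnia replicates 1 and 2.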
